A study of Homo sapiens with 9 samples.

Results

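The WNT pathway genes described here are SFRP1, a secreted antagonist, the membrane E3 ligases RNF43 and ZNRF3, the co-receptors LRP5 and LRP6, the scaffolds AXIN1 and AXIN2, β-catenin (CTNNB1), and the transcription factors TCF7L2 and LEF1. They were chosen by gene symbol, and all 10 had values among the 14839 genes of the table. The choice rested on 2 measured values, a higher late level of SFRP1 and a lower late level of RNF43 with miR-16 than with the control, so these values are given as a description. RNA sequencing of polyA RNA was performed in MP41 cells, a human uveal melanoma line, with 1 library for each of 9 conditions. Cells were harvested before transfection (0 h, labelled with the control mimic) and 6, 12, 24, and 48 h after transfection of synthetic miR-16 or of the control mimic miR-CTR, both at 66 nM. A single line was used, no mock-transfected cells are among the 9 libraries, and the dose of miR-16 was set by transfection. The table numbers its time points, and these numbers were taken as the labelled hours in rising order, which the labels do not state.

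WNT ligands bind Frizzled receptors together with LRP5 or LRP6, and this stops a destruction complex, built on AXIN1 or AXIN2, from marking β-catenin for decay. β-catenin then enters the nucleus and works with TCF and LEF factors on target genes, among which are AXIN2, RNF43, ZNRF3, and LEF1. The pathway holds itself back at several levels: SFRP proteins capture the ligand outside the cell, RNF43 and ZNRF3 remove Frizzled from the membrane, and AXIN2 rebuilds the destruction complex. In the melanocyte lineage WNT signaling takes part in the formation of the neural crest and in the expression of MITF, its master transcription factor.

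Mature miR-16 (hsa-miR-16-5p, RefSeq, GRCh38.p14) is made from MIR16-1 (chr13:50049027-50049048, reverse strand) and from MIR16-2 (chr3:160404754-160404775, forward strand). It is shown with the control sequence because the seed, bases 2 to 8 in capitals, decides which letters were searched for in the transcripts. The control sequence comes from the study's list of biotinylated oligonucleotides, where it stands under the name of miR-16 and the miR-16 sequence under that of miR-CTR. The labels were taken as exchanged, and the transfected miR-CTR was assumed to have the same sequence.
miR-16: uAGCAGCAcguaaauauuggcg
control sequence: uUGUACUAcacaaaaguacug

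The seed of miR-16 is shared by 7 mature human miRNAs in RefSeq, among them miR-15a, miR-15b, miR-195, miR-424, and miR-497. A match was counted in the longest annotated 3′UTR of a gene (GENCODE version 29, GRCh38) where the transcript, read on its own strand, held TGCTGCTA (8mer), TGCTGCT (7mer-m8), or GCTGCTA (7mer-A1). An 8mer contains both 7mers and was counted once. Such a match was found in 4 of the 10 genes, RNF43, ZNRF3, AXIN2, and LRP6, and in 3383 of 11584 measured protein-coding genes with a 3′UTR (29.2%). The median 3′UTR length was 1728 bases for the 10 genes and 1420 bases for the 11584. Longer 3′UTRs hold a match more often, so each gene is set beside the measured genes whose 3′UTR is within 10% of its own length.

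Both E3 ligases carried matches. RNF43 had 2 in a 3′UTR of 2443 bases, and 38.9% of 867 genes with a 3′UTR of like length had at least 1. ZNRF3 had 4 in 3865 bases, 1 of them an 8mer and the only 8mer among the 10 genes, where 50.2% of 655 genes of like length had a match. The windows below are written 5′ to 3′ on the transcript with the match in capitals.
RNF43 7mer-m8, chr17:58354585-58354611, reverse strand: gttacaaaggTGCTGCTccttctccaa
RNF43 7mer-A1, chr17:58354437-58354463, reverse strand: ccacagtaagGCTGCTAcatcaggggc
ZNRF3 7mer-A1, chr22:29054326-29054352, forward strand: aggtcaagccGCTGCTAtgaaagctcc
ZNRF3 7mer-m8, chr22:29054748-29054774, forward strand: accccttggcTGCTGCTtccttgggct
ZNRF3 7mer-A1, chr22:29055680-29055706, forward strand: aggagtagcaGCTGCTAaggacagcag
ZNRF3 8mer, chr22:29056881-29056908, forward strand: catacttatgTGCTGCTAgtctctactc

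AXIN2 had 2 matches in 1413 bases (26.0% of 850 genes of like length), and LRP6 had 3 in 5101 bases (59.1% of 445 genes). They are shown because these genes carry the same letters as RNF43 but differ from it in their values below.
AXIN2 7mer-m8, chr17:65529547-65529573, reverse strand: tttatggataTGCTGCTttaaacttgg
AXIN2 7mer-m8, chr17:65529324-65529350, reverse strand: ttttttcctaTGCTGCTctgttttgtc
LRP6 7mer-m8, chr12:12120909-12120935, reverse strand: acagcagattTGCTGCTtgtgccataa
LRP6 7mer-A1, chr12:12119529-12119555, reverse strand: tggtactgggGCTGCTAcatcttgagc
LRP6 7mer-m8, chr12:12116325-12116351, reverse strand: aaggatctggTGCTGCTttcagatgtt

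In the 3′UTRs of SFRP1, AXIN1, LRP5, CTNNB1, TCF7L2, and LEF1 no such match was present (for SFRP1, with a 3′UTR of 3209 bases, 43.6% of 795 genes of like length had one). With 6-base matches (GCTGCT) also counted, SFRP1 and TCF7L2 were added, giving 6 of the 10 genes, beside 5421 of the 11584. Matches of 7 or 8 bases in the coding sequence were found in 5 of the 10 genes, beside 4290 of the 11584. There LRP5 had 9, most of them overlapping in a run of repeated letters near its start. ZNRF3 had 7, RNF43 3, CTNNB1 2, and SFRP1 1. The seed of the control sequence was matched in the 3′UTR of LRP6 alone (2 matches), against 14.7% of all the genes. A match describes letters in a transcript. No binding was measured in these libraries.

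Values were deposited as log2 of normalised reads plus 1. The reads recovered from them came to between 20300000 and 27400000 per library, and the library medians lay between 9.13 and 9.17. All 7 melanocyte lineage markers (MITF, PMEL, MLANA, TYR, TYRP1, DCT, and SOX10) had levels between 12.29 and 17.88, and their summed level spanned 18.63 to 18.94 with miR-16 and 18.59 to 18.83 with miR-CTR. The epithelial, leukocyte, and endothelial markers looked for had no value in the table analysed here. Of 3 fibroblast markers COL1A1 and PDGFRB had values, between 3.52 and 8.86. The logFC is the miR-16 value minus the miR-CTR value of the same time on this log2 scale, averaged over 6 and 12 h (early) and over 24 and 48 h (late). A gene was called past 0.5 in size, the threshold of the study. With 1 library per condition there is no replicate check, no test was made, and the standard error (SE) given covers the counting of reads only. In bulk RNA, fewer cells expressing a gene and less RNA per cell cannot be told apart.

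SFRP1, which binds WNT ligands outside the cell, was the gene with the highest late logFC of the 10. It lies on the reverse strand of chromosome 8 (chr8:41261958-41309497) in 4 exonic blocks. Its log2 level was 12.53 at 0 h. With miR-CTR it was 12.11, 12.12, 11.75, and 11.35 at 6, 12, 24, and 48 h. With miR-16 it was 12.00, 12.37, 12.69, and 13.21 at the same times. The arms were close at 6 h and moved apart from 12 h on, in opposite directions, so that the lowest of all 9 libraries was miR-CTR at 48 h and the highest was miR-16 at 48 h. In order of time, the logFC was −0.11, 0.25, 0.94, and 1.86, the last being 3.63-fold. The late logFC was 1.40 (counting SE 0.022), a 2.64-fold difference, from between 3060 and 8970 reads per library at 24 and 48 h. This was the 45th highest late logFC of the 14839 genes. Set against 0 h, the late mean stood at −0.98 in the control arm and at 0.42 in the miR-16 arm, so the larger part of the distance between the arms lay in the control.

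RNF43, an E3 ligase that marks Frizzled for removal and is itself a β-catenin target, was the gene with the lowest late logFC of the 10. Its log2 level was 7.89 at 0 h. With miR-CTR it was 8.46, 8.90, 9.12, and 9.28 at the 4 times after transfection. With miR-16 it was 8.06, 8.06, 8.10, and 8.25. The 4 libraries with miR-16 were all below the 4 with miR-CTR, and all 8 were above 0 h. RNF43 was the 1 gene of the 10 whose miR-16 libraries were all below (3.75% of all genes), and none had them all above (3.81%). The miR-16 libraries spanned 0.19, while the level with miR-CTR was higher at each later time. In order of time, the logFC was −0.40, −0.84, −1.02, and −1.03. The early logFC was −0.62 (counting SE 0.080) and the late logFC −1.02 (counting SE 0.074), which is 2.03-fold lower, from 260 to 727 reads per library in the late window. It was the 61st lowest late logFC of the 14839 genes. Set against 0 h, its late mean stood at 1.31 in the control arm and at 0.285 in the miR-16 arm. With miR-16 it was thus below the control of the same time and above the cells before transfection.

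RNF43 (chr17:58352500-58417595, reverse strand) shares 73.9% of its 7505 exonic bases with exons of other GENCODE genes, among them SUPT4H1, AC004687.2, and TSPOAP1-AS1. AC004687.2 and SUPT4H1 lie on the same strand as RNF43, and TSPOAP1-AS1 lies on the opposite one. Whether reads were counted by strand is not stated, and counting by strand would part RNF43 from TSPOAP1-AS1 only. Reads in the shared bases could therefore have been dropped or assigned to a neighbor. Most of the shared bases lie in AC004687.2, and SUPT4H1 holds the fewest of the 3 neighbors named. SUPT4H1 was the only neighbor with a value under its symbol, a late logFC of 0.08. That value covers a small part of the overlap, so it does not show where reads in the shared bases were assigned.

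ZNRF3 (chr22:28883592-29057487, forward strand), the paralog of RNF43 with the same function, had a level of 8.82 at 0 h. The 4 control libraries were at 9.15, 8.93, 8.96, and 8.69 in order of time. The 4 miR-16 libraries were at 8.68, 8.70, 8.57, and 8.52. At each time the miR-16 library was the lower one, and across times the arms met at their edges (8.69 with miR-CTR at 48 h and 8.70 with miR-16 at 12 h). The logFC was −0.47, −0.23, −0.39, and −0.17 in the order of the times, and the late logFC was −0.28 (counting SE 0.071), inside the threshold. Its late logFC was above that of RNF43, with a difference of −0.74 for RNF43 minus ZNRF3 (counting SE 0.10). ZNRF3 has 4 seed matches and RNF43 has 2. Set against 0 h, the late mean of ZNRF3 stood at 0.005 in the control arm and at −0.275 in the miR-16 arm, whereas that of RNF43 was farther from 0 h in the control arm.

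**Figure D1:**
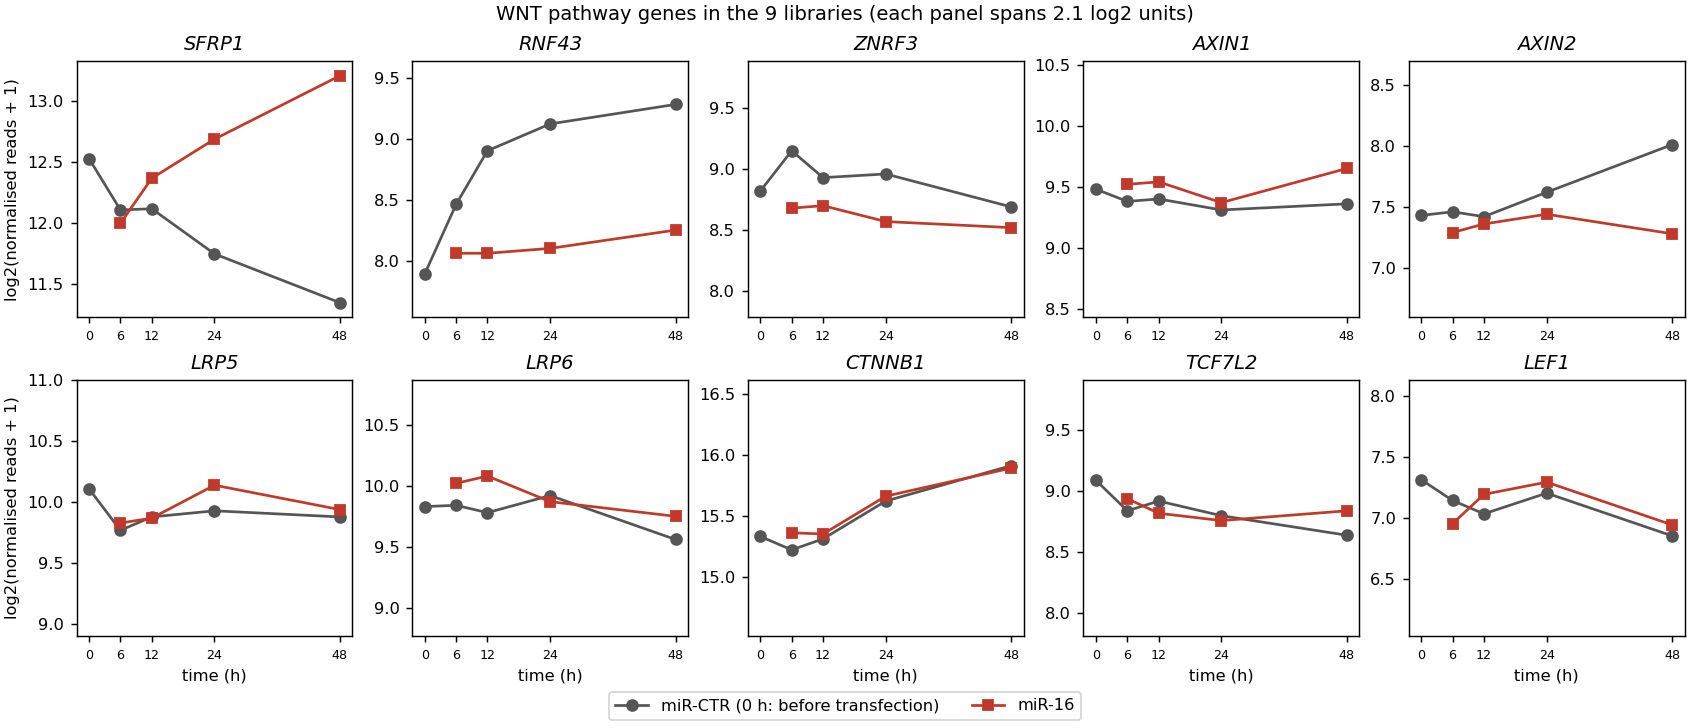
Log2 level (log2 of normalised reads plus 1) of each of the 10 genes against time in hours, 1 point per library, with circles for miR-CTR (0 h before transfection) and squares for miR-16. SFRP1 parts in opposite directions, from 12.53 at 0 h to 13.21 with miR-16 and 11.35 with miR-CTR at 48 h, RNF43 climbs to 9.28 with miR-CTR and ends at 8.25 with miR-16, and the lines of CTNNB1 run together.

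The co-receptors LRP5 and LRP6 bind WNT together with Frizzled and hold AXIN at the membrane. LRP5 (chr11:68312609-68449275, forward strand) had levels between 9.77 and 10.11 with miR-CTR, 0 h included, and between 9.83 and 10.14 with miR-16. Its late logFC was 0.14 (counting SE 0.046), with 0.21 at 24 h and 0.06 at 48 h. LRP6 (chr12:12116025-12267012, reverse strand) had levels between 9.56 and 9.92 with miR-CTR and between 9.75 and 10.08 with miR-16. In order of time, its logFC was 0.18, 0.30, −0.05, and 0.19, with a late logFC of 0.07 (counting SE 0.049). Ranges of the arms overlapped for both genes. LRP6, with 3 seed matches for miR-16 and 2 for the control sequence, was higher with miR-16 at 3 of 4 times, and the late logFC of LRP5 and LRP6 differed by 0.06 (counting SE 0.067).

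AXIN1 and AXIN2 are the scaffolds that hold β-catenin and its kinases in the destruction complex. AXIN1 (chr16:287440-352673, reverse strand), which is made in most cells, had levels of 9.48 at 0 h and 9.38, 9.40, 9.31, and 9.36 with miR-CTR. With miR-16 its levels were 9.52, 9.54, 9.37, and 9.65, above the control at each of the 4 times. The late logFC was 0.18 (counting SE 0.055). AXIN2 (chr17:65528563-65561647, reverse strand), which is itself induced by β-catenin and widely read as a measure of pathway activity, had a level of 7.43 at 0 h. The 4 control libraries were at 7.46, 7.42, 7.62, and 8.01. The 4 miR-16 libraries were at 7.29, 7.36, 7.44, and 7.28. The miR-16 levels stayed within 0.16 of each other, and the library that stood apart was miR-CTR at 48 h. In order of time, the logFC of AXIN2 was −0.17, −0.06, −0.18, and −0.73. The late logFC was −0.46 (counting SE 0.11), inside the threshold, while the single value at 48 h was past it, from 146 reads with miR-16 and 301 with miR-CTR. At 48 h, 2 of the 10 genes (RNF43 and AXIN2) and 8.96% of all genes were below −0.5. AXIN1 minus AXIN2 in late logFC was 0.63 (counting SE 0.12). Of the exonic bases of AXIN2, 25.2% are shared with another annotated gene, AC004805.1 on the same strand.

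CTNNB1 (chr3:41194741-41260096, forward strand) encodes β-catenin, which also joins cadherins to the cytoskeleton. It was the 23rd most abundant gene of the table by mean log2 level, with 36600 to 72100 reads per library. Its level was 15.33 at 0 h. The 4 control libraries were at 15.22, 15.31, 15.62, and 15.91. The 4 miR-16 libraries were at 15.36, 15.35, 15.66, and 15.89. Both arms ended above 0 h by nearly the same amount, with late means at 0.435 in the control arm and 0.445 in the miR-16 arm. The late logFC was 0.01 (counting SE 0.0061), the smallest in size of the 10 genes. These are mRNA levels, and the pathway acts on the stability of the β-catenin protein, which was not measured here.

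TCF7L2 and LEF1 bind DNA and bring β-catenin to its target genes. TCF7L2 (chr10:112950250-113167678, forward strand) was highest before transfection (9.09) and lay between 8.64 and 8.92 with miR-CTR and between 8.76 and 8.94 with miR-16. Its late logFC was 0.08 (counting SE 0.069). LEF1 (chr4:108047545-108168956, reverse strand) had levels between 6.85 and 7.31 with miR-CTR and between 6.94 and 7.29 with miR-16, from 107 to 158 reads per library. Its late logFC was 0.09 (counting SE 0.12). For both genes the ranges of the arms overlapped. Against 0 h, both were lower in the late window in each arm, all inside the threshold. The values were −0.37 in the control arm and −0.29 in the miR-16 arm for TCF7L2, and −0.285 and −0.195 for LEF1.

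Counted over the 10 genes, 1 was up in the late window (SFRP1) beside 7.76% of all genes, and 1 was down (RNF43) beside 5.73%. Past 0.5 at both 24 and 48 h there was again 1 up (4.03% of all genes) and 1 down (2.78%), the same pair. In the early window none was up (2.04% of all genes) and RNF43 was down (1.45%). SFRP1 and RNF43 chose the list, so nothing follows from these counts about them. The other 8 genes were all within 0.5 in both windows, with late logFC between −0.46 (AXIN2) and 0.18 (AXIN1) and a median of 0.075, beside a median of 0.005 for all genes. Set against 0 h, RNF43 was up past 0.5 in the late window with miR-CTR (11.0% of all genes) and SFRP1 was down (9.79%). With miR-16 none of the 10 genes was past 0.5 in either direction in the late window, where 14.1% of all genes were up and 11.7% were down. Both comparisons use the same 0 h library.

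**Figure D2:**
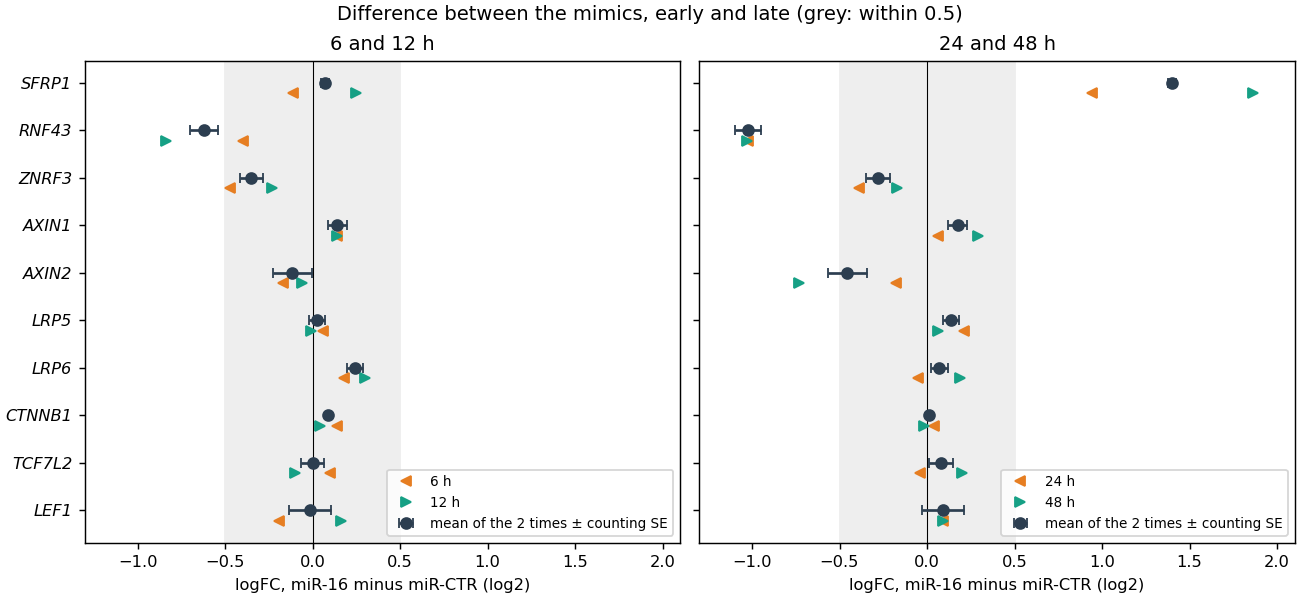
The logFC (miR-16 minus miR-CTR, log2) of the 10 genes in the early (left) and the late window (right), with circles and bars for the mean of the 2 times ± its counting SE and triangles for each time. Outside the grey band of 0.5 stand RNF43 in both windows (−0.62 and −1.02) and SFRP1 in the late window (1.40), while AXIN2 crosses it at 48 h alone (−0.73).

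Levels can be compared between genes per length, as reads per kilobase of exonic sequence scaled to the depth of the library (RPKM, computed from the recovered reads). The length joins the exons of all annotated transcripts of a gene, 11927 bases for CTNNB1 and 4761 for SFRP1. Order and overlaps between genes therefore depend on the annotation as well. In RPKM, the order at 0 h was CTNNB1 (150.0), SFRP1 (54.1), LRP5 (7.81), AXIN1 (4.15), LRP6 (3.83), TCF7L2 (3.52), ZNRF3 (2.82), AXIN2 (1.43), RNF43 (1.37), and LEF1 (1.28). Over the 9 libraries CTNNB1 spanned 139 to 221, SFRP1 23.5 to 85.9, and LRP5 6.16 to 8.12, so these 3 neighbors did not overlap. The ranges of AXIN1 (3.72 to 4.63), LRP6 (3.12 to 4.59), and TCF7L2 (2.53 to 3.52) each overlapped with the next, down to ZNRF3 (2.27 to 3.54). The range of AXIN2 (1.28 to 2.1) lay below that of ZNRF3. Between the E3 ligases the order turned in the control arm. Per kilobase, RNF43 was below ZNRF3 at 0 h (1.37 and 2.82) and above it with miR-CTR at 24 h (3.25 and 3.14) and 48 h (3.54 and 2.53), whereas with miR-16 it was still below it at 48 h (1.75 and 2.27). RNF43 levels per kilobase may be too low where shared exons cost it reads. At 0 h SFRP1 stood above 93.7% of the genes matched to the annotation and LEF1 above 18.7%.

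To place the 10 genes in their pathway, 129 genes of WNT signaling were listed by role, of which 94 had values. In the late window 7 of the 94 were up (7.45%, against 7.76% of all genes), 7 were down (7.45%, against 5.73%), and 80 were within 0.5. SFRP1 is 1 of the 7 up and RNF43 is 1 of the 7 down, and both were set by the choice of genes. The list was also drawn up with earlier results of these data known, so these counts are a description. The median late logFC of the list was −0.035. In the early window 1 of the 94 was up (1.06%, against 2.04% of all genes) and 3 were down (3.19%, against 1.45%).

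Upstream of the receptors, the 4 WNT ligands with values, of 19 listed, were within 0.5, as were PORCN and WLS, which process and release them. Of 4 secreted antagonists with values, SFRP1 was up, and so was NOTUM, which removes the lipid from WNT, with a late logFC of 0.65 (counting SE 0.26) from 22 to 37.1 reads per library. All 14 receptors and co-receptors with values were within 0.5, between −0.41 and 0.45. Among the R-spondin branch RNF43 was down and the 3 others with values, ZNRF3 included, were within 0.5.

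Inside the cell, DACT1, a binding partner of Dishevelled, was up by a late logFC of 1.32 (counting SE 0.041), with 1.07 at 24 h and 1.58 at 48 h. Its level at 0 h was 10.86. At 48 h it was 9.54 in the control arm and 11.12 in the miR-16 arm, on either side of 0 h as for SFRP1. DACT3 was up by 0.51 (counting SE 0.16) and DVL1, a Dishevelled protein, was down by −0.53 (counting SE 0.049). Of 17 genes of the destruction complex and its regulators, AXIN1 and AXIN2 among them, 1 was past the threshold. This was BTRC, a substrate receptor of the E3 ligase that degrades β-catenin, down by −0.82 (counting SE 0.055). Its late levels were 9.90 and 9.97 in the control arm and 9.01 and 9.21 in the miR-16 arm. FBXW11, in the same group, had a late logFC of −0.04 (counting SE 0.034). Of 16 genes of β-catenin, TCF/LEF factors, and cofactors, 1 was past it, CTNNBIP1, which keeps β-catenin from binding TCF. Its late logFC was −0.86 (counting SE 0.080). Set against 0 h, the late mean of CTNNBIP1 stood at 1.185 in the control arm and at 0.33 in the miR-16 arm. PRICKLE1, of the planar cell polarity branch, had a late logFC of 1.34 (counting SE 0.14). Its level was 7.72 at 0 h, and at 48 h it was 5.61 in the control arm and 7.63 in the miR-16 arm, so the control arm moved farther from 0 h than the distance between the arms, and both arms were below 0 h.

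Among 23 transcriptional targets of β-catenin with values, 3 were up (NOTUM, MYC, and JUN), 4 were down (RNF43, CCND1, BIRC5, and SNAI2), and 16 were within 0.5. The median of the 23 was −0.13. AXIN2, ZNRF3, and LEF1 were among the 16. MYC had a late logFC of 0.58 (counting SE 0.020) and JUN of 0.62 (counting SE 0.10). CCND1, which encodes cyclin D1, had a late logFC of −0.63 (counting SE 0.013) and SNAI2, a transcription factor of the neural crest, of −0.71 (counting SE 0.053). BIRC5, which is expressed in dividing cells, had −0.58 (counting SE 0.031). Set against 0 h, the late means with miR-16 and with miR-CTR stood at 0.445 and −0.14 for MYC and at −1.055 and −1.675 for JUN. They stood at −0.07 and 0.56 for CCND1, 0.50 and 1.21 for SNAI2, and −0.92 and −0.34 for BIRC5. JUN was thus below 0 h in both arms, and SNAI2 was above it in both. In late logFC, targets past the threshold stood on both sides of 0, and many of them are also known to be controlled by other pathways. NOTUM, DVL1, DACT3, and BIRC5, and APC, KREMEN2, and AMER1 below, are outside the rule for named genes and were named after their values were seen.

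**Figure D3:**
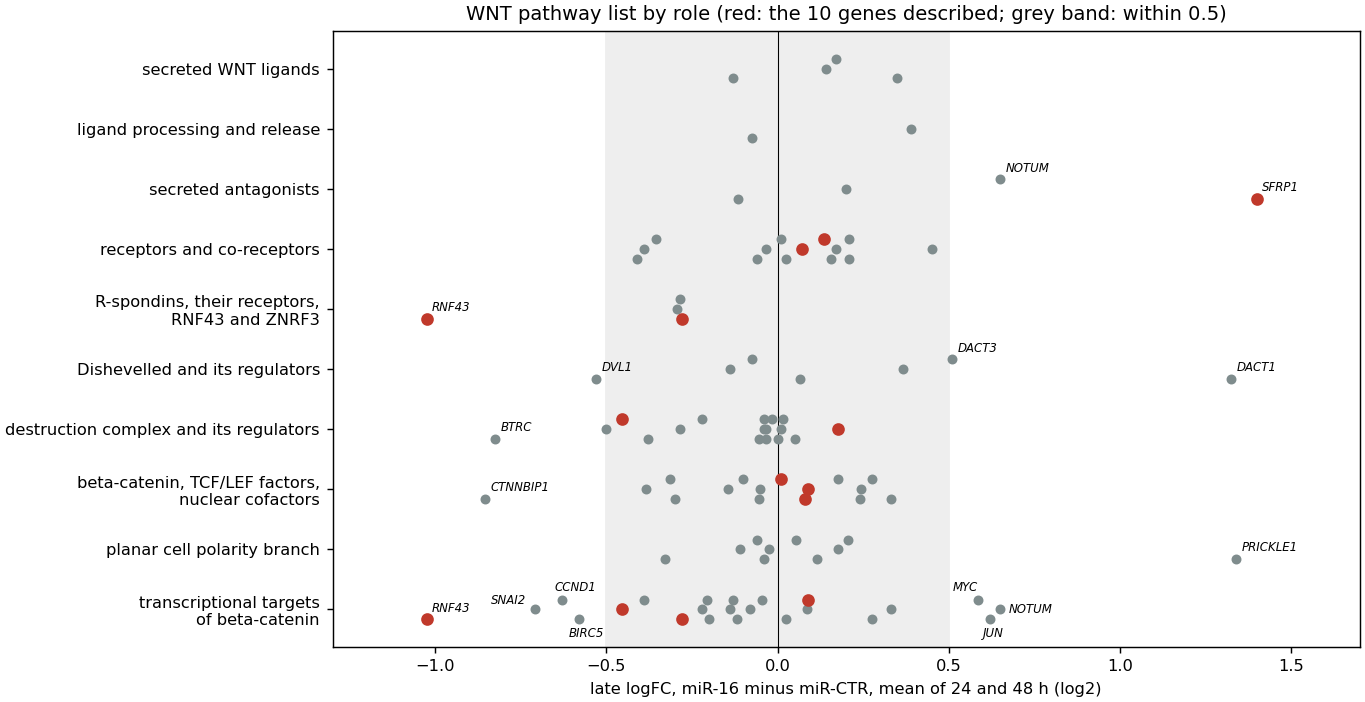
Late logFC (miR-16 minus miR-CTR, mean of 24 and 48 h, log2) of the 94 pathway genes with values, 1 point per gene, in rows by role, with the 10 genes described in red and the grey band marking 0.5. Most points lie in the band, SFRP1 (1.40), PRICKLE1 (1.34), and DACT1 (1.32) are farthest to the right, and RNF43 (−1.02) is farthest to the left, shown also among the targets.

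Seed matches were set beside these values. All 7 pathway genes that were down in the late window (RNF43, DVL1, BTRC, CTNNBIP1, CCND1, BIRC5, and SNAI2) had a match to miR-16 in the 3′UTR, as did 30 of the 80 within 0.5 (37.5%) and none of the 7 that were up. APC, which has no match, was counted within 0.5 but stood at the threshold. Its late logFC was −0.5 (counting SE 0.036), with −0.59 at 24 h and −0.41 at 48 h. Over all measured genes with a 3′UTR, the share with a match was 52.7% of 632 down in the late window, 21.1% of 734 up, and 29.2% overall. The median 3′UTR length was 2442 bases for the 7 that were down and 1287 bases for the 7 that were up. Among the 4 of the 10 genes with a match, more matches did not go with lower values. RNF43 and AXIN2 have 2 each, with late logFC of −1.02 and −0.46, while LRP6 with 3 had 0.07 and ZNRF3 with 4 had −0.28. Of the list, 7 genes had 2 matches and a median late logFC of −0.53, 24 genes had 1 and a median of −0.08, and 57 genes had none and a median of 0.015. The 6 genes with 3 or more matches, LRP6 and ZNRF3 among them, did not continue this order: 2 genes had 3 (median 0.048), 2 had 4 (median −0.063), 1 had 5 (−0.015), and 1 had 6 (−0.205). Overlapping matches were each counted. The 4 of KREMEN2 overlap in a run of repeated letters, and some of the 5 of AMER1 overlap, so these are not separate sites. SFRP1, with no match in the 3′UTR, had the highest late logFC of the list. The seed of the control sequence was matched in 25.6% of the 734 genes up, 11.2% of the 632 down, and 14.7% of all measured genes with a 3′UTR. In the pathway list the control seed was matched in 0 of the 7 genes up, 0 of the 7 down, and 9 of the 80 within 0.5. Any bearing of these matches on the levels was not tested.

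**Figure D4:**
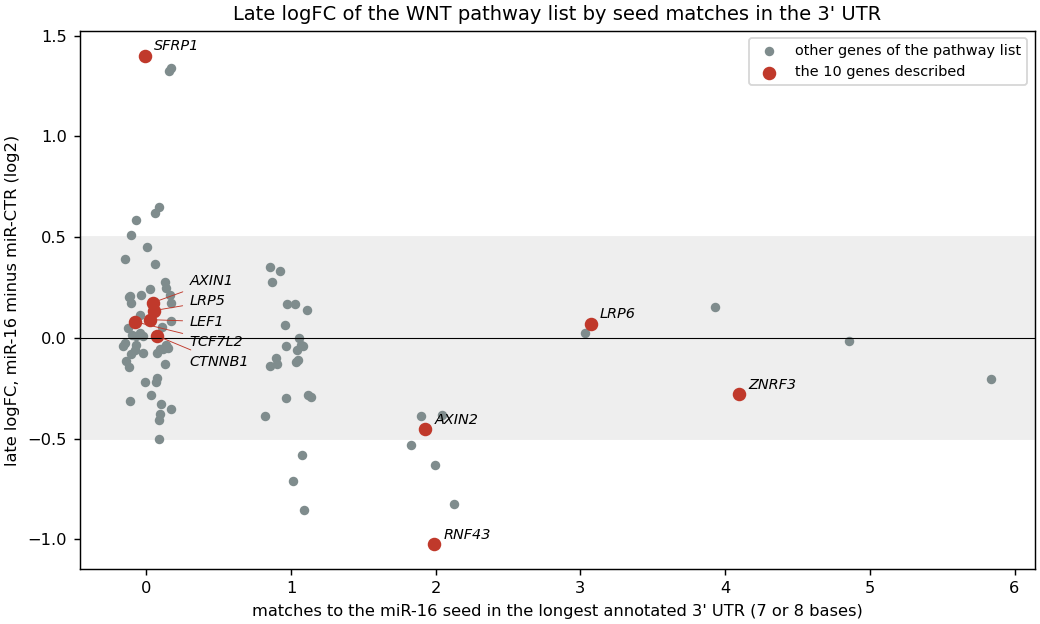
Late logFC (log2) of the 94 pathway genes against the number of miR-16 seed matches in the longest annotated 3′UTR, 1 point per gene, spread sideways for legibility, with the 10 genes described in red. All genes below the grey band of 0.5 have 1 or 2 matches, SFRP1 (1.40) has none, and LRP6 (0.07) and ZNRF3 (−0.28) lie in the band with 3 and 4. APC, at the lower edge of the band (−0.5), has none.

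The genes whose 9 log2 values followed SFRP1 and RNF43 most closely were named from 1546 genes with enough expression and range. Pearson's r describes likeness over 9 libraries that share the 0 h sample and the control arm. The genes were picked by this likeness, so moving the same way as SFRP1 or RNF43 follows from the choice. For SFRP1 these were SERPINE2 (r = 0.974), MAP2 (r = 0.973), and TGM2 (r = 0.972), with late logFC of 1.16, 1.24, and 1.25. Each of them was lower than at 0 h with miR-CTR, by −0.54, −0.77, and −0.58, and higher with miR-16, by 0.62, 0.46, and 0.66. For RNF43 these were TMCC2 (r = 0.982), GAREM (r = 0.95), and DSTYK (r = 0.938), with late logFC of −0.72, −0.69, and −0.57. Their late levels with miR-CTR were above 0 h by 0.96, 0.72, and 0.95, and with miR-16 by 0.24, 0.04, and 0.38, as RNF43 was by 1.31 and 0.285.

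**Figure D5:**
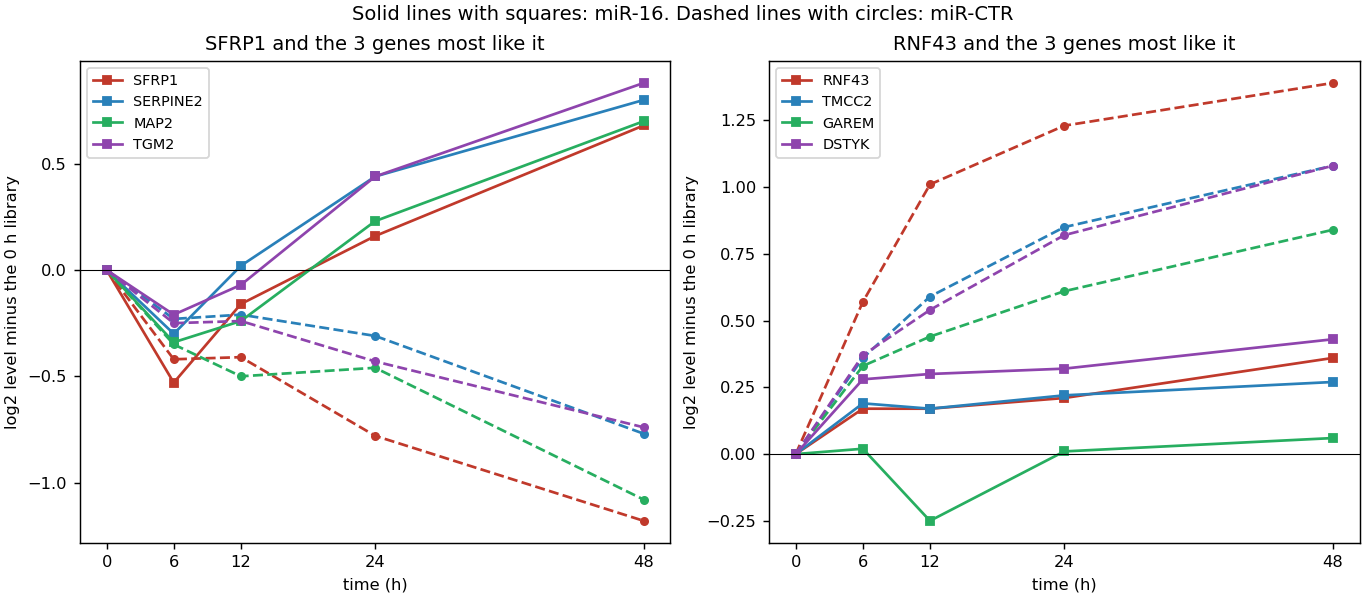
Log2 level minus that of the 0 h library against time in hours, for SFRP1 (left) and RNF43 (right) with the 3 genes most like each, with solid lines and squares for miR-16 and dashed lines and circles for miR-CTR. The SFRP1 set parts to both sides of 0 after 12 h (late means of SFRP1 0.42 and −0.98), and in the RNF43 set the dashed lines climb well above the solid ones (RNF43 1.31 and 0.285).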

How the data were processed

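PolyA RNA of MP41 cells was sequenced by the authors, 1 library per condition, and 1 table of log2 normalized values for 14839 genes was deposited, with 2 decimals. The submitters' processing notes name FastQC, STAR 2.4.0a, featureCounts, Subread 1.5.0-p3, and hg38 (GRCh38). The role of each tool, the annotation, the strand setting, and the size factor are not given in the sources used here. For values up to 15 on the linear scale, 100% were whole multiples of 1 step per library within 0.1, so the unit is log2(reads / size factor + 1), and reads were recovered by dividing by the step. Genes and 3′UTRs came from GENCODE version 29, joined by symbol (13002 of 14839 symbols, 87.6%, and all 10 genes).

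LogFC, windows, and the threshold of 0.5 follow the study. The counting SE was propagated from the reads by the delta method, covers counting error only, and leaves out rounding to 2 decimals. Calling and recovery of reads were tested on simulated data. Named genes are the 10 genes, pathway genes past 0.5 the same way at 24 and 48 h and above the lowest 25% of mean expression, and the 3 genes most like SFRP1 and RNF43 by Pearson's r among those above the lowest 25% and spanning at least 1. The genes, the pathway list, and the markers were chosen with earlier results of these data known. Alternatives were a 1.5-fold threshold, quantile normalization, centring on the median gene, recovered reads scaled to the library total, pseudocounts of 0.5 and 5, the 0 h library as the reference, single times, the threshold at each time, a filter on the lowest 25% of mean expression, and other definitions of a match. Python 3.11.15, pandas 2.3.3, numpy 2.4.6, and matplotlib 3.10.9 were used.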

Additional observations from a re-analysis of the deposited data

How the results depend on the processing

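With the 0 h library as the reference in place of miR-CTR of the same time, the late logFC of RNF43 turned to 0.285 and that of SFRP1 was 0.42, so 0 of the 10 genes were past 0.5 in the late window and 0 in the early window, and 27 of the 94 pathway genes were past it late (18 up and 9 down). SFRP1 was 0.94 at 24 h alone and 1.86 at 48 h alone. With the threshold passed at each of the 2 times, 0 genes were called in the early window. With 8mers alone, 1 of the 10 genes (ZNRF3) had a miR-16 match, beside 574 of the 11584 genes with a 3′UTR. Under the other thresholds, normalizations, and pseudocounts run, the counts of the 10 genes and of the pathway list stayed within 1.5 times and SFRP1 and RNF43 kept their side of 0.5. For the 8 other genes 64 alternatives were computed, of which 16 moved the late logFC beyond its 95% counting interval and 1 took it past 0.5 (AXIN2 at 48 h alone, −0.73). Each logFC pairs the 2 libraries of the same time, and no fit with time as a block was run, since times are not replicates of a condition. Depth limits AXIN2 and LEF1 most, with 107 to 301 reads per library. The absence of replicates limits every difference given here, since culture, transfection, and library preparation cannot be told apart from the mimic.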
